A study of Mus musculus with 33 samples.

Results

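The genes described here carry out iron uptake, storage and export in the liver and encode hepcidin, the hormone that sets plasma iron. They are Hamp, Hamp2, Tfrc, Tfr2, Trf, Fth1, Ftl1, Slc40a1, Slc11a2 and Hmox1, each represented by its brightest probe set with a single gene symbol. Such a probe set existed for 8 of the 10 genes, out of 18193 genes measured in this way. Trf and Ftl1 get no values here: the probe set of Trf also carried the symbol Srprb, and those of Ftl1 also carried the pseudogene Ftl1-ps2. Gene expression was measured on Affymetrix arrays in 5 tumours of E2f1 knock-in mice (1KI), 4 tumours of E2f3b knock-in mice (3bKI), 5 livers of E2f3a knockout mice (3aKO) and 7 wildtype livers (wt). The E2f genes encode transcription factors that control the cell cycle. All mice were 12 months old, on a mixed background of FVB/NT, 129S1/Svlmj and C57BL/6NT. The tumours were hepatocellular carcinomas that had arisen spontaneously, whereas 3aKO and wt livers were normal, so that genotype and tumour status cannot be told apart in 1KI and 3bKI. The authors normalized 1KI, 3aKO and wt together (normalization 1) and 3bKI, 3aKO and wt together (normalization 2). The 12 arrays of 3aKO and wt stand in both, the tumour groups share no normalization, and all comparisons with a given normal group share its arrays. The labels do not say whether each liver or tumour came from its own animal, so p-values measure the spread between these samples.

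Hepatocytes take up transferrin-bound iron, store it in ferritin and release it through ferroportin, and they secrete hepcidin, which binds ferroportin and removes it from the cell surface. Hepcidin transcription is known to rise with iron through BMP receptors, hemojuvelin and SMAD proteins, aided by HFE and transferrin receptor 2, and to rise in inflammation through interleukin-6 and STAT3. When cells are short of iron, iron regulatory proteins bind messenger RNAs, stabilising that of the transferrin receptor and holding back translation of ferritin. Mice have a pair of hepcidin genes, Hamp and Hamp2, of which Hamp encodes the iron-regulating hormone.

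BMP and STAT elements through which hepcidin is known to be controlled lie upstream of Hamp. The upstream sequences of both hepcidin genes are shown for this reason, and because the probe sets used had different spreads in the same livers. They are the 250 bases before the start site in RefSeq (build GRCm38.p6, minus strand), chr7:30944030-30944279 for Hamp and chr7:30924182-30924431 for Hamp2, written 5′ to 3′. Capitals mark matches to GGCGCC, the core of the BMP-responsive element, and to TTCNNNGAA, a STAT site.
Hamp: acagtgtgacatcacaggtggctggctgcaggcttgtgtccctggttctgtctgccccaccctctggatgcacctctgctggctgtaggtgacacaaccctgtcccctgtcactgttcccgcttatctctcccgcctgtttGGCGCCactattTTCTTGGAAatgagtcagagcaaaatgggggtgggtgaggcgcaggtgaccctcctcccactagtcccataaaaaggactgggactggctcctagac
Hamp2: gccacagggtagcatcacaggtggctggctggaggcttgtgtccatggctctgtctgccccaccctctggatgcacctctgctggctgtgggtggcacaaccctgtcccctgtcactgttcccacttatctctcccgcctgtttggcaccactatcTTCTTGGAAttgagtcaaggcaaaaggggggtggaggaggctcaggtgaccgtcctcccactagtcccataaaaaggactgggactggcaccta
Both motifs read the same on both strands. In Hamp, GGCGCC began 109 bases and TTCNNNGAA 97 bases before the start site, with no overlap between them. In Hamp2, TTCNNNGAA began 94 bases before the start site and there was no GGCGCC in the window. Over 247 aligned bases 227 were identical (91.9%), with 20 substitutions and 6 gap bases. G145A, counted from 1 at the 5′ end of the Hamp window with the Hamp base first, was the 1 substitution within GGCGCC. Among 32851 promoter windows of 250 bases, 9.59% held GGCGCC and 7.02% held TTCNNNGAA. The expression values do not test these elements.

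Of the targeted genes, E2f3 read 7.14 to 7.81 in 1KI, 6.42 to 6.88 in 3aKO and 6.59 to 7.03 in wt in normalization 1, and 6.58 to 7.01 in 3bKI in normalization 2, where 3aKO had 6.25 to 6.74 and wt 6.42 to 6.93. E2f1 read 5.83 to 6.47 in 1KI and 5.84 to 6.22 in wt. Whether these probe sets lie in the altered exons is not given in the sources used here, so they do not check the labels. The median log2 value of an array was 5.48 to 5.53 in normalization 1 and 5.34 to 5.43 in normalization 2. The mean of 9 hepatocyte markers, albumin among them, was 13.80 to 13.97 in 1KI, 13.89 to 14.01 in 3aKO and 13.71 to 13.995 in wt in normalization 1, and is given for 3bKI beside Tfr2. In 1KI, replicates 3 and 4 stood apart from the other arrays, with scores of 61.0 and 69.8 on the first principal component, against -17.0 to 5.08 for all others of normalization 1. They also had the lowest means of 13 Kupffer cell and macrophage markers, 8.25 and 8.298, and the highest means of 9 markers of dividing cells, 5.98 and 6.45. Where leaving out this pair turned the sign of an iron gene's change or moved it by over 1.5 times, the value without it is given. Sex, read from Xist and the Y-linked genes Eif2s3y and Kdm5d, was female in 2 of 5 1KI, 3 of 4 3bKI, 3 of 5 3aKO and 3 of 7 wt samples, and unclear in 3bKI replicate 2.

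Of the iron genes, Tfr2 was the 1 that differed in any comparison of genotypes, and it did so in 3bKI tumours against 3aKO livers, where it was lower. Calls were made by limma at an adjusted p under 0.05, adjusted by Benjamini-Hochberg over all genes. In 3aKO against wt livers 0 of 8 iron genes were called, with 0% of all genes called, and 0 of 8 had groups that did not overlap, with 0.5% of all genes. In 1KI against wt 0 of 8 were called (0.242% of all genes) and 1 of 8 did not overlap (1.98%). In 1KI against 3aKO 0 of 8 were called (0%) and 1 of 8 did not overlap (3.41%). In 3bKI against wt 0 of 8 were called (2.07%) and 0 of 8 did not overlap (4.28%). In 3bKI against 3aKO 1 of 8 was called (9.18%) and 1 of 8 did not overlap (15%). With 8 genes, 1 call is near the share of all genes and is not a result about the group of iron genes. The median log2 change of the 8 was 0.18 in 3aKO against wt, -0.12 in 1KI against wt, -0.46 in 1KI against 3aKO, -0.03 in 3bKI against wt and -0.18 in 3bKI against 3aKO, where the medians of all genes lay between -0.03 and 0.03. At an unadjusted p under 0.05 there was 1 iron gene in each comparison, Fth1 in 3aKO against wt and Tfr2 in the other 4. Of all genes 7.46% were under it in 3aKO against wt, 19.0% in 1KI against wt, 14.02% in 1KI against 3aKO, 20.8% in 3bKI against wt and 29.1% in 3bKI against 3aKO, so that 1 of 8 was not above the background in the tumour comparisons.

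**Figure D1:**
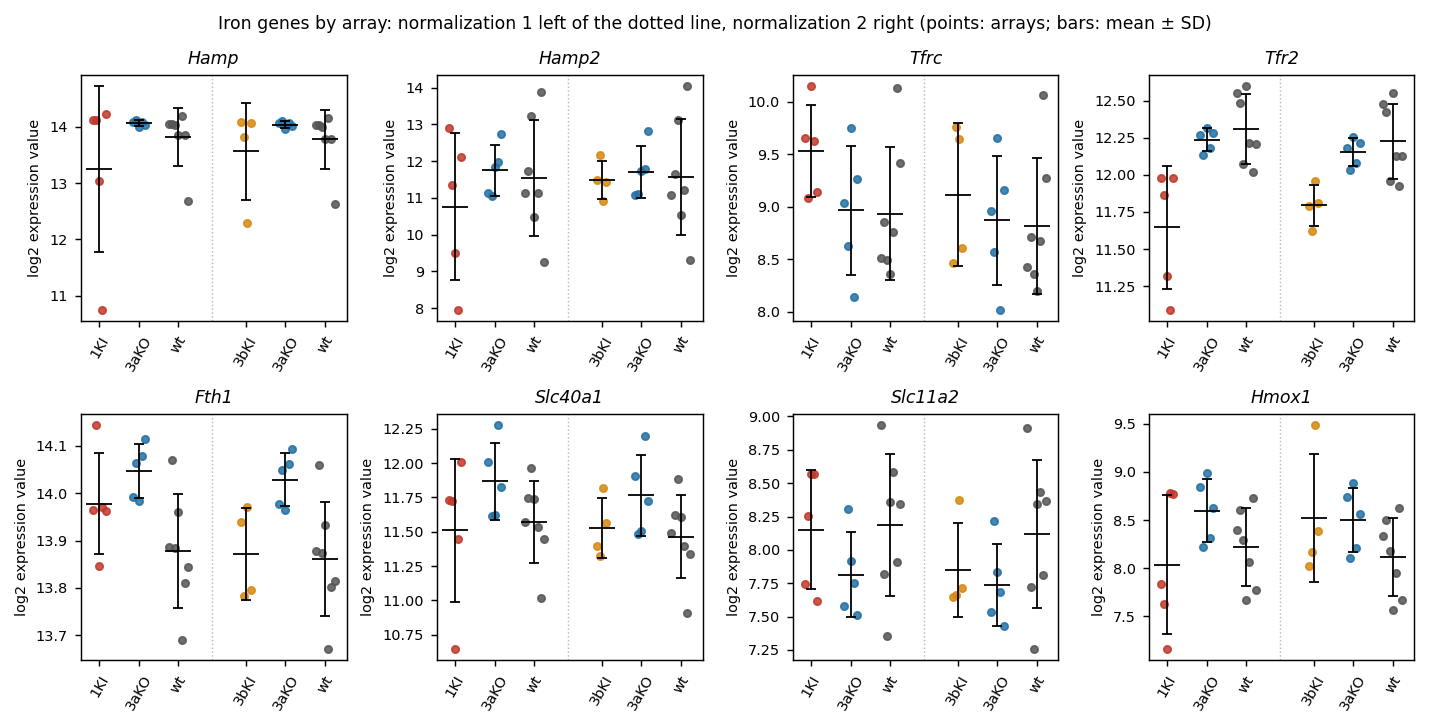
Log2 expression value of each iron gene by array, with 1KI, 3aKO and wt in normalization 1 left of the dotted line and 3bKI, 3aKO and wt in normalization 2 right of it; points are arrays and bars mean ± SD, and each panel has its own axis. Tfr2 lies lower in 1KI and 3bKI tumours than in 3aKO livers without overlap, and the low Hamp values belong to 1KI replicates 3 and 4, 3bKI replicate 3 and wt replicate 7.

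Hamp, the hepcidin gene, was near the top of the scale in most samples. Its log2 values in 1KI tumours 1 to 5 were 14.12, 14.11, 13.04, 10.75 and 14.22. In 3aKO livers 1 to 5 they were 14.09, 14.12, 13.99, 14.09 and 14.03, and in wt livers the lowest, median and highest were 12.68, 14.04 and 14.19. Low values were thus those of 1KI replicates 3 and 4 and wt replicate 7, the groups overlapped, and the 3aKO livers lay within a narrow range. Hamp had a log2 change of -0.57 ± 0.53 (SE) in 1KI against wt (adjusted p = 0.559, 95% interval -1.70 to 0.57) and -0.82 ± 0.58 in 1KI against 3aKO (adjusted p = 0.529, limma). Without 1KI replicates 3 and 4 the change was 0.34 against wt livers (adjusted p = 0.693) and 0.09 against 3aKO livers (adjusted p = 0.771), so that the sign of the difference rested on these tumours. The mean of Hamp over all columns stood at the 99.8th percentile of genes, and the highest value in the table was 15.044.

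In 3bKI tumours 1 to 4 Hamp stood at 14.08, 13.81, 12.28 and 14.07. The 3aKO livers had 14.07, 14.10, 13.95, 14.06 and 14.01 in this normalization, and wt livers had a lowest value of 12.62, a median of 13.999 and a highest of 14.15. Replicate 3 was the low tumour, and it also had the highest Kupffer cell and macrophage marker mean of its normalization (10.66, against 8.88 to 9.37 in the other 3bKI tumours). The part of these cells in its Hamp value was not tested. For Hamp, which passed neither test, the log2 change was -0.21 ± 0.36 against wt livers (adjusted p = 0.775) and -0.47 ± 0.32 against 3aKO (adjusted p = 0.345, limma). The change against wt livers was -0.46 with sex as a covariate, which leaves out 3bKI replicate 2 (adjusted p = 0.747). Between 3aKO and wt livers it was 0.25 ± 0.21 (adjusted p = 0.800), with a 95% interval of -0.20 to 0.70.

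In the probe sets used, Hamp2, the second hepcidin gene, varied far more between normal livers than Hamp did, with an SD of 1.58 against 0.51 in wt (n = 7 each). Hamp stood near the top of the scale, and the part of a signal ceiling in its smaller SD was not tested. Its values were 12.90, 11.36, 9.51, 7.95 and 12.10 in 1KI tumours, 11.14, 11.04, 11.84, 11.98 and 12.74 in 3aKO livers, and had a lowest of 9.26, a median of 11.14 and a highest of 13.88 in wt livers. The lowest tumours were again 1KI replicates 3 and 4, and the lowest wt liver was again replicate 7. Hamp2 had a log2 change of -0.78 ± 0.91 in 1KI against wt (adjusted p = 0.644), -0.98 ± 0.83 in 1KI against 3aKO (adjusted p = 0.601) and 0.20 ± 0.66 in 3aKO against wt (adjusted p = 0.960). Without 1KI replicates 3 and 4 the change was 0.57 against wt livers (adjusted p = 0.841) and 0.37 against 3aKO livers (adjusted p = 0.855), so that its sign also turned. In 3bKI tumours Hamp2 had 11.49, 12.17, 10.91 and 11.43, within the range of 3aKO and wt livers except replicate 3, which lay below all 3aKO livers. The change there was -0.07 ± 0.72 against wt livers (adjusted p = 0.968) and -0.20 ± 0.36 against 3aKO (adjusted p = 0.731, limma). A fit with sex as a covariate, which leaves out 3bKI replicate 2, gave -1.67 against wt livers (adjusted p = 0.269) and -0.61 against 3aKO livers (adjusted p = 0.441). In 3aKO against wt that covariate turned the sign of Hamp2, to -0.08 (adjusted p = 0.976), and of Tfrc, to -0.08 (adjusted p = 0.952). A second probe set of Hamp2 read far lower, at 5.20 ± 0.17 (SD) in wt livers, so the wide spread is that of the probe set used. The probe sets used for Hamp and Hamp2 are both of a type that can also bind related sequences. The share of either gene's RNA in the signal of the other was not tested.

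Transferrin receptor 2, encoded by Tfr2, is the hepatocyte protein that senses transferrin-bound iron on the way to hepcidin, and it was the iron gene whose tumour and normal values overlapped least. Its log2 values were 11.98, 11.87, 11.32, 11.09 and 11.98 in 1KI tumours. In 3aKO livers they were 12.27, 12.13, 12.32, 12.18 and 12.28, and in wt livers the lowest, median and highest were 12.02, 12.22 and 12.60. All 5 tumours lay below all 5 3aKO and all 7 wt livers, with replicates 3 and 4 lowest, while 3aKO and wt overlapped. Tfr2 had a log2 change of -0.66 ± 0.17 in 1KI against wt (0.633-fold, adjusted p = 0.117) and -0.59 ± 0.17 in 1KI against 3aKO (0.664-fold, adjusted p = 0.232), neither past the threshold in limma. Without replicates 3 and 4 the change was -0.36 against wt livers (adjusted p = 0.449) and -0.30 against 3aKO livers (adjusted p = 0.258). A second probe set of Tfr2, fitted among all probe sets, gave -0.64 in 1KI against wt (adjusted p = 0.165, limma), where the groups overlapped. Against 3aKO it gave -0.59 (adjusted p = 0.217) without overlap. Between 3aKO and wt livers the change of the probe set used was -0.07 ± 0.11 (adjusted p = 0.896).

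In 3bKI tumours Tfr2 had 11.79, 11.62, 11.96 and 11.81. The 3aKO livers had 12.18, 12.03, 12.26, 12.08 and 12.21, and wt livers had 11.93, 12.12 and 12.55 as lowest, median and highest. All 4 tumours lay below all 5 3aKO livers, and 3 of 4 lay below all wt livers. Tfr2 was lower in 3bKI tumours than in 3aKO livers by a log2 change of -0.36 ± 0.09 (0.781-fold, adjusted p = 0.0381, limma), and against wt livers the change was -0.43 ± 0.13 (0.741-fold, adjusted p = 0.102). The second probe set of Tfr2, fitted among all probe sets, gave -0.64 (adjusted p = 0.0340) against 3aKO and -0.69 (adjusted p = 0.113) against wt. In a whole tissue extract, fewer cells of a type and less RNA per cell cannot be told apart.

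The call of Tfr2 in 3bKI against 3aKO was a narrow one. Leaving out 1 array at a time gave log2 changes of -0.41 to -0.30 and adjusted p of 0.0438 to 0.0829, and the call was kept in 1 of 9 fits, the one without 3bKI replicate 3. It was lost with quantile normalization (-0.27, adjusted p = 0.0810) and with sex as a covariate, which leaves out 3bKI replicate 2 (-0.36, adjusted p = 0.1004). With sex in the fit the change against wt was -0.25 (adjusted p = 0.576). The mean of 9 hepatocyte markers was 13.53 to 13.76 in 3bKI tumours, 13.85 to 13.99 in 3aKO livers and 13.68 to 13.97 in wt livers. The markers did not move together: against 3aKO 6 lay below 0, 2 of them called, and 3 lay above 0. Apob had a median of 11.61 in 3bKI and 13.00 in 3aKO, whereas albumin had 14.88 and 14.89. The mean of 9 markers of dividing cells was 4.72 to 7.76 in 3bKI tumours, 4.57 to 4.96 in 3aKO livers and 4.36 to 5.03 in wt livers. The 3′ minus 5′ signal of the beta-actin control (log2), a sign of RNA quality, was 0.698 to 0.874 in 3bKI tumours, 1.06 to 1.35 in 3aKO livers and 0.654 to 1.37 in wt livers. That of the Gapdh control was 0.141 to 0.181 in 3bKI, 0.154 to 0.261 in 3aKO and 0.205 to 0.325 in wt. Their part in the Tfr2 difference was not tested.

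**Figure D2:**
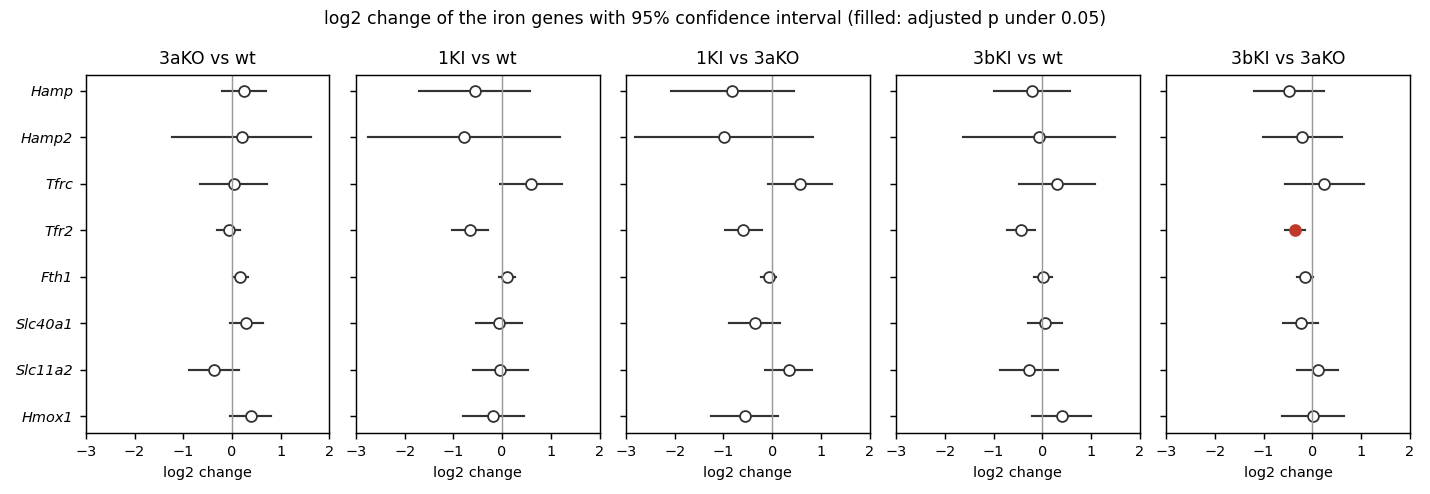
Log2 change of the 8 iron genes (rows) in each of 5 comparisons (panels), first group over second, with the 95% confidence interval; a filled point has an adjusted p under 0.05. Tfr2 in 3bKI against 3aKO is the filled one, and Hamp2 has the widest interval in 4 of the 5 panels.

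Transferrin receptor 1, encoded by Tfrc, takes up transferrin-bound iron and its messenger RNA is stabilised when iron is short. Its values were 9.65, 9.08, 10.15, 9.63 and 9.14 in 1KI tumours, 9.03, 8.63, 9.75, 8.14 and 9.26 in 3aKO livers, and had a lowest of 8.36, a median of 8.76 and a highest of 10.14 in wt livers. The tumours overlapped with both normal groups, and replicate 3 lay just above the highest normal liver. Tfrc had a log2 change of 0.60 ± 0.29 in 1KI against wt (adjusted p = 0.283), 0.57 ± 0.30 in 1KI against 3aKO (adjusted p = 0.407) and 0.03 ± 0.32 in 3aKO against wt (adjusted p = 0.986, limma). Without 1KI replicates 3 and 4 it was 0.36 against wt livers (adjusted p = 0.739) and 0.33 against 3aKO livers (adjusted p = 0.821). In 3bKI tumours Tfrc had 8.46, 9.76, 9.65 and 8.60, a pair of high and a pair of low tumours. Against wt livers the change was 0.30 ± 0.36 (adjusted p = 0.675), and against 3aKO livers it was 0.25 ± 0.36 (adjusted p = 0.677). With sex as a covariate, which leaves out 3bKI replicate 2, the sign turned, with -0.14 against wt livers (adjusted p = 0.928) and -0.35 against 3aKO livers (adjusted p = 0.579).

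Fth1, the heavy chain of ferritin, had nearly the same value in every sample. It averaged 13.98 ± 0.11 (SD, n = 5) in 1KI, 14.05 ± 0.06 (n = 5) in 3aKO and 13.88 ± 0.12 (n = 7) in wt, and in normalization 2 it averaged 13.87 ± 0.10 (n = 4) in 3bKI, 14.03 ± 0.06 in 3aKO and 13.86 ± 0.12 in wt. The log2 change of 0.17 ± 0.07 in 3aKO against wt had an unadjusted p of 0.0301 and an adjusted p of 0.655 in limma, and the groups overlapped. A second probe set of Fth1 gave 0.04 in that comparison (adjusted p = 0.908). Tumours of 1KI differed by 0.10 ± 0.08 from wt livers (adjusted p = 0.479) and by -0.07 ± 0.07 from 3aKO livers (adjusted p = 0.671). Tumours of 3bKI differed by 0.01 ± 0.08 from wt livers (adjusted p = 0.956) and by -0.16 ± 0.07 from 3aKO livers (adjusted p = 0.191). The 1KI differences without replicates 3 and 4 were 0.146 from wt livers (adjusted p = 0.628) and -0.02 from 3aKO livers (adjusted p = 0.960). The 3bKI differences with sex as a covariate, without replicate 2, were -0.01 from wt livers (adjusted p = 0.984) and -0.11 from 3aKO livers (adjusted p = 0.557).

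Slc40a1 encodes ferroportin, the iron exporter that hepcidin removes. It averaged 11.51 ± 0.52 in 1KI, 11.87 ± 0.28 in 3aKO and 11.57 ± 0.30 in wt, and 11.53 ± 0.22 in 3bKI, 11.76 ± 0.30 in 3aKO and 11.46 ± 0.30 in wt of normalization 2. The mean was highest in 3aKO in both normalizations, and no pair of groups differed beyond the spread between samples. The lowest tumour was 1KI replicate 3, at 10.65. Slc40a1 had a log2 change of 0.30 ± 0.16 in 3aKO against wt (adjusted p = 0.692), -0.06 ± 0.21 in 1KI against wt (adjusted p = 0.884) and -0.36 ± 0.24 in 1KI against 3aKO (adjusted p = 0.497). Leaving out 1KI replicates 3 and 4, the sign turned against wt livers (0.25, adjusted p = 0.657), and the change was -0.05 against 3aKO livers (adjusted p = 0.959). In 3bKI it was 0.06 ± 0.16 against wt livers (adjusted p = 0.858) and -0.24 ± 0.16 against 3aKO (adjusted p = 0.342, limma). Sex as a covariate, without 3bKI replicate 2, gave 0.12 against wt livers (adjusted p = 0.865) and -0.12 against 3aKO livers (adjusted p = 0.770). Macrophages also express ferroportin.

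Slc11a2 encodes DMT1, which carries ferrous iron across membranes. Its values were 7.75, 8.25, 8.57, 8.57 and 7.62 in 1KI tumours, 7.58, 8.31, 7.91, 7.75 and 7.51 in 3aKO livers, and 7.35, 8.35 and 8.94 as lowest, median and highest in wt livers. All groups overlapped, with the widest spread in wt. Slc11a2 had a log2 change of -0.37 ± 0.24 in 3aKO against wt (adjusted p = 0.732), -0.04 ± 0.26 in 1KI against wt (adjusted p = 0.951) and 0.34 ± 0.22 in 1KI against 3aKO (adjusted p = 0.493). When 1KI replicates 3 and 4 were left out it was -0.31 in 1KI against wt (adjusted p = 0.737) and 0.06 in 1KI against 3aKO (adjusted p = 0.960). In 3bKI tumours Slc11a2 had 7.64, 7.66, 8.37 and 7.71, replicate 3 being the high one. Its change was -0.27 ± 0.27 against wt livers (adjusted p = 0.606) and 0.11 ± 0.19 against 3aKO (adjusted p = 0.731, limma). With sex as a covariate, which leaves out 3bKI replicate 2, the sign against wt livers turned, to 0.31 (adjusted p = 0.615). The change against 3aKO livers was then 0.31 (adjusted p = 0.477).

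Hmox1 encodes heme oxygenase 1, which frees iron from heme. Its values were 7.83, 7.63, 7.16, 8.78 and 8.78 in 1KI tumours, 8.84, 8.22, 8.99, 8.32 and 8.62 in 3aKO livers, and had a lowest of 7.67, a median of 8.30 and a highest of 8.73 in wt livers. The tumours spread widest, with replicates 1, 2 and 3 below the 3aKO range and replicates 4 and 5 within it. Of the pair with low macrophage markers, replicate 3 was thus the lowest tumour and replicate 4 was among the high ones. The part of macrophages in these values was not tested. The log2 change was 0.38 ± 0.20 in 3aKO against wt (adjusted p = 0.690), -0.18 ± 0.29 in 1KI against wt (adjusted p = 0.738) and -0.56 ± 0.31 in 1KI against 3aKO (adjusted p = 0.428). In 3bKI tumours Hmox1 had 8.03, 8.17, 9.49 and 8.39, and the high one was replicate 3, the tumour with the highest macrophage markers. Its change was 0.40 ± 0.28 against wt livers (adjusted p = 0.438) and 0.02 ± 0.29 against 3aKO (adjusted p = 0.974, limma). Sex as a covariate, without 3bKI replicate 2, gave 0.20 against wt livers (adjusted p = 0.851) and turned the sign against 3aKO livers (-0.10, adjusted p = 0.893).

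Sex was the other variable by which iron genes differed, with Hmox1 higher and Slc11a2 lower in female than in male normal livers. In 12 normal livers, 6 female and 6 male, with genotype in the fit, 2 of 8 iron genes were called, beside 2.53% of all genes. Hmox1 had a lowest, median and highest value of 8.30, 8.68 and 8.99 in females and of 7.67, 8.15 and 8.39 in males, with a small overlap. It was higher in females by a log2 difference of 0.56 ± 0.13 (adjusted p = 0.0332, limma). Slc11a2 had 7.35, 7.70 and 7.91 in females and 7.75, 8.35 and 8.94 in males, the lowest male lying within the female range. It was lower in females by a difference of -0.66 ± 0.16 (adjusted p = 0.0460). With wt livers only, 3 female and 4 male, the differences were 0.57 (adjusted p = 0.279) for Hmox1 and -0.86 (adjusted p = 0.0790) for Slc11a2, and 0 of 8 were called.

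Hamp2 had 11.14, 12.29 and 13.88 in female normal livers and 9.26, 11.09 and 11.98 in male ones. Its female minus male difference of 1.596 ± 0.50 was the widest of the 8 and did not pass (adjusted p = 0.121, 95% interval 0.51 to 2.69). The differences of Tfrc (0.63 ± 0.28, adjusted p = 0.277) and Hamp (0.14 ± 0.21, adjusted p = 0.804) did not pass either. Tfr2, Fth1 and Slc40a1 had differences of -0.06, 0.03 and -0.05 (adjusted p = 0.836, 0.902 and 0.921). Kupffer cell and macrophage markers moved with sex as well: the mean of 13 markers was 9.39 to 10.08 in females and 8.93 to 9.51 in males, and their part in the Hmox1 difference was not tested. In the 1KI tumours, which did not enter this fit, Slc11a2 had 7.75 and 7.62 in the 2 female and 8.25, 8.57 and 8.57 in the 3 male tumours. Of these males 2 were replicates 3 and 4, the pair that stood apart. Hmox1 overlapped between the sexes in 1KI. In the 3 female 3bKI tumours Slc11a2 had 7.64, 8.37 and 7.71 in normalization 2, where the highest female normal liver had 7.83.

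**Figure D3:**
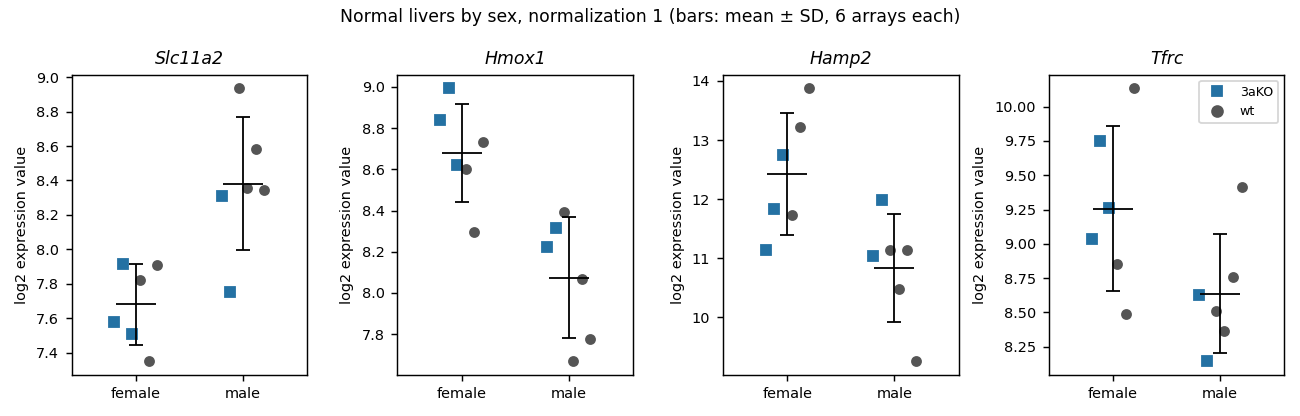
Log2 expression value of Slc11a2, Hmox1, Hamp2 and Tfrc in 6 female and 6 male normal livers of normalization 1; squares are 3aKO, circles wt, and bars mean ± SD of the 6 arrays. Slc11a2 lies lower and Hmox1 higher in females, with 1 male liver inside the female range for Slc11a2 and 2 for Hmox1.

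Genes of the wider iron and heme pathways were read from 8 lists, with 98 measured genes besides the members. In 3aKO against wt livers 0 of 98 were called. Of 23 genes of BMP, HFE and matriptase-2 control of hepcidin 21 lay above 0, with a median log2 change of 0.19, beside a median of 0.00 and 50.5% above 0 over all genes. Tmprss6, or matriptase-2, which cleaves hemojuvelin and restrains hepcidin, had 0.21 ± 0.06. Of 15 interleukin-6 and STAT3 genes 13 lay below 0 (median -0.11), with the acute phase gene Saa1 at -2.37 ± 0.72. The genes of lowest p in the other lists were haptoglobin, Hp (-0.36 ± 0.11), the metalloreductase Steap1 (-0.31 ± 0.11), the mitochondrial iron importer Slc25a28 (0.19 ± 0.08), Fbxl5, which directs the breakdown of IRP2 (0.24 ± 0.10), sulfiredoxin Srxn1 (0.26 ± 0.11) and Alas1, the first enzyme of heme synthesis (0.42 ± 0.38). Adjusted p for the genes named here was 0.641 to 0.820 in limma.

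In 1KI against wt, 1 of 98 was called. Nfe2l2, which encodes NRF2, the activator of antioxidant and heme-handling genes, had 10.59, 11.14, 11.11, 10.77 and 10.71 in 1KI tumours and a lowest, median and highest of 9.73, 10.14 and 10.35 in wt livers. The groups did not overlap, and Nfe2l2 was higher by 0.75 ± 0.12 (adjusted p = 0.0334, limma). This call was kept without 1KI replicate 1 or 2 or wt replicate 3 or 7, and lost without any of the other 8 arrays (0.69 to 0.79, adjusted p = 0.0505 to 0.0796) and without 1KI replicates 3 and 4 together (0.70, adjusted p = 0.104). The metalloreductase Steap2 had -0.59 ± 0.12 without overlap (adjusted p = 0.0718). Other genes of lowest p in their lists were the heme transporter Slc48a1 (0.71 ± 0.24), Smad1 of the BMP pathway (0.35 ± 0.12), Alad of heme synthesis (-0.47 ± 0.18), Il6st, the shared interleukin-6 receptor chain (-0.29 ± 0.12), mitochondrial ferritin Ftmt (-0.19 ± 0.10) and Fbxl5 (0.15 ± 0.10). Their adjusted p was 0.169 to 0.428.

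Against 3aKO, 0 of 98 genes were called in 1KI tumours. The values of lowest p were Steap2 (-0.50 ± 0.11), Nfe2l2 (0.71 ± 0.18), Hp (0.32 ± 0.09), Tmprss6 (-0.37 ± 0.11), the interleukin-6 receptor Il6ra (-0.54 ± 0.16), the cysteine desulfurase Nfs1 (-0.33 ± 0.13), Cpox of heme synthesis (-0.57 ± 0.24) and the hypoxia factor Epas1 (0.27 ± 0.18). Adjusted p for these was 0.179 to 0.518 in limma. Of these, Steap2, Hp and Tmprss6 had groups that did not overlap.

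In 3bKI tumours against wt livers 4 of 98 pathway genes were called, 4.08% beside 2.07% of all genes. Srxn1, which repairs oxidised peroxiredoxins and is an NRF2 target, had 9.27, 9.51, 9.48 and 9.497 in 3bKI tumours and 8.22, 8.34 and 8.71 as lowest, median and highest in wt livers. It was higher by 1.00 ± 0.11 without overlap (adjusted p = 0.00503, limma). Ireb2, which encodes iron regulatory protein 2, had 8.88, 8.59, 8.73 and 8.68 in 3bKI tumours and 9.01, 9.25 and 9.60 in wt livers. It was lower by -0.58 ± 0.10 without overlap (adjusted p = 0.0238). Cd163, the macrophage receptor for haptoglobin and hemoglobin, was lower by -1.90 ± 0.39 (adjusted p = 0.0341), with values of 5.29, 3.24, 4.64 and 5.00 in the tumours and 5.48 to 7.15 in wt livers. The other 12 Kupffer cell and macrophage markers all lay above 0 in this comparison, with none called. Steap2 was lower by -0.55 ± 0.12 (adjusted p = 0.0364).

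In the remaining lists 0 genes were called in 3bKI against wt. Lowest in p were the mitochondrial iron importer Slc25a37 (-0.49 ± 0.12), the BMP receptor Bmpr2 (-0.35 ± 0.11), Slc48a1 (0.33 ± 0.10), the kinase Jak1 (-0.24 ± 0.08) and ferrochelatase, Fech (-0.37 ± 0.15), with adjusted p of 0.0558 to 0.204. The count of 4 was 7 without 3bKI replicate 1, 8 without wt replicate 7, 4 without wt replicate 5 or 6, and 1 or 2 without any other array. With sex as a covariate, which leaves out 3bKI replicate 2, it was 1, Srxn1 (0.93, adjusted p = 0.0277, limma). Leaving out that replicate alone also gave 1, so the part of sex cannot be told apart.

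In 3bKI tumours against 3aKO livers 17 of 98 pathway genes were called, 3 higher and 14 lower, 17.3% beside 9.18% of all genes. Of all genes 531 were called higher and 1140 lower, so that most calls were lower there as well. In the BMP, HFE and matriptase-2 list 5 of 23 were lower and 0 higher. They were the hemojuvelin receptor Neo1 (-0.47 ± 0.09), the type II receptors Bmpr2 (-0.42 ± 0.09) and Acvr2a (-0.38 ± 0.08), Smad5 and Tmprss6. Against wt livers 0 of the 23 were called, and the wt means of these 5 lay between those of 3bKI and 3aKO. In 3bKI, wt and 3aKO the means were 7.12, 7.34 and 7.60 for Neo1 and 9.32, 9.68 and 9.75 for Bmpr2. They were 8.10, 8.29 and 8.48 for Acvr2a, 7.84, 8.11 and 8.21 for Smad5, and 12.07, 12.18 and 12.38 for Tmprss6. The messenger RNAs of both iron regulatory proteins were lower, Ireb2 by -0.61 ± 0.11 (adjusted p = 0.0165) and Aco1 by -0.51 ± 0.14 (adjusted p = 0.0473, limma). Protein was not measured. The call was kept in 14 of 16 alternatives for Ireb2 and in 4 of 16 for Aco1. In the BMP list it was kept in 12 for Neo1, 9 for Tmprss6, 8 for Bmpr2 and 7 each for Acvr2a and Smad5. Across the 16 alternatives Smad5 ranged from -0.40 to -0.06 (adjusted p = 0.0214 to 0.701, limma). Ireb2 did not overlap, with 9.06, 9.46, 9.22, 9.49 and 9.45 in the 3aKO livers. In the interleukin-6 list Il6ra (-0.75 ± 0.20) and Cebpa, a factor that binds the hepcidin promoter (-0.43 ± 0.09), were lower. Their calls were kept in 4 and 7 of 16 alternatives.

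Among uptake genes Cd163 (-1.69 ± 0.43) and Steap2 (-0.47 ± 0.11) were lower in 3bKI than in 3aKO, and Lcn2, lipocalin 2, which binds iron-loaded siderophores, was higher by 3.18 ± 0.87 (adjusted p = 0.0496, limma). Lcn2 had 9.90, 10.999, 13.32 and 10.91 in the tumours and 8.64, 6.06, 10.03, 6.78 and 9.01 in the 3aKO livers, with overlap. In wt livers it had 7.11, 10.55 and 13.28 as lowest, median and highest, and it was not called against them. Against 3aKO, 8 of 8 neutrophil markers also lay above 0, with 1 called, and their part in the Lcn2 difference was not tested. The iron chaperone Pcbp2 (-0.37 ± 0.10) and Nfs1 (-0.34 ± 0.09) were lower and the mitochondrial transporter Abcb8 (0.30 ± 0.08) higher. Most of these calls were not firm. The call was kept in 3 of 15 alternatives for Cd163 and in 8 of 16 for Steap2. Of 16 alternatives it was kept in 3 for Lcn2, 2 for Pcbp2, 5 for Nfs1 and 4 for Abcb8. In the heme breakdown and NRF2 list Srxn1 was higher (0.72 ± 0.12) and Mafg, a partner of NRF2, lower (-0.69 ± 0.14). Their calls were kept in 14 and 12 of 16 alternatives. The export list (Hpx, hemopexin, 0.27 ± 0.08, adjusted p = 0.0618) and the heme synthesis list (Alas1, -0.66 ± 0.24, adjusted p = 0.102) had 0 called genes.

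**Figure D4:**
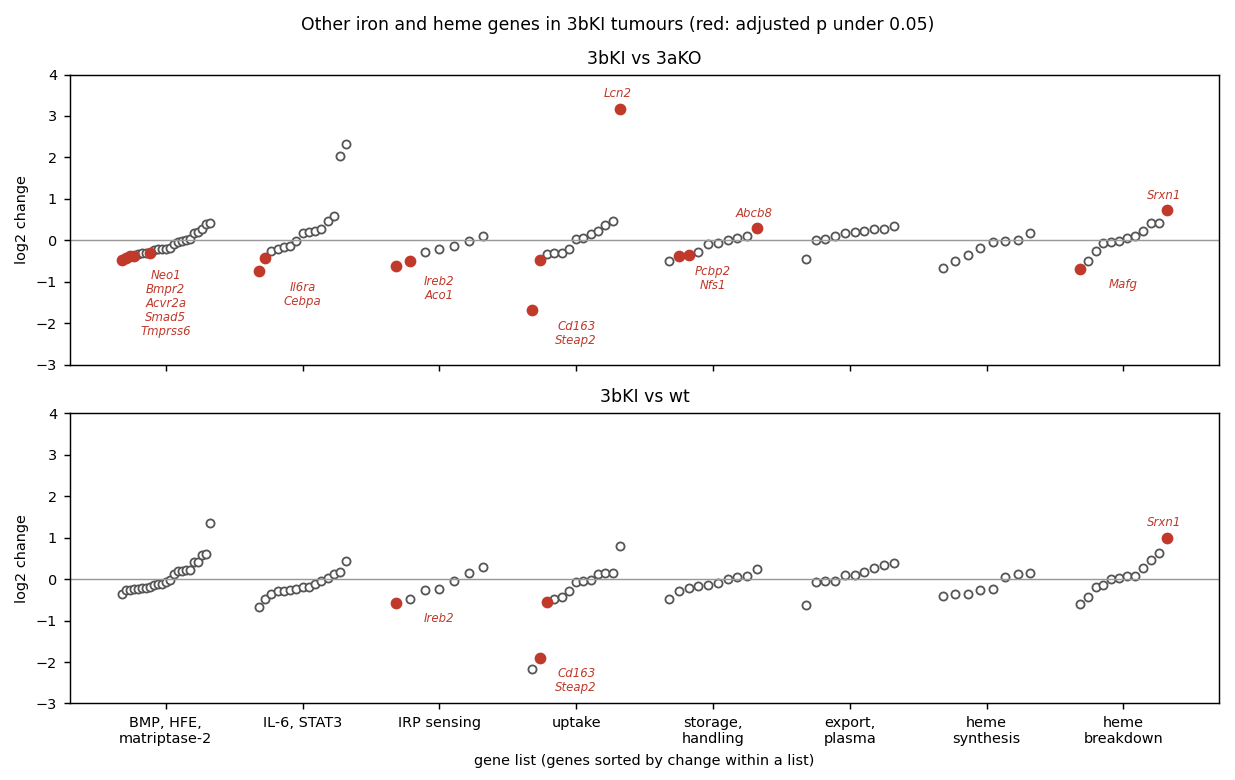
Log2 change of 98 other iron and heme genes by list in 3bKI against 3aKO (top) and 3bKI against wt (bottom), with genes sorted by change within each list; red points with names have an adjusted p under 0.05. In the upper panel 14 named genes lie below 0 and 3 above, and in the lower panel 3 below and 1 above.

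The count of 17 depended on which array was left out. It was 14 without 3bKI replicate 1 and 13 without 3aKO replicate 1, 9 without 3bKI replicate 2 or 3aKO replicate 3, 7 without 3bKI replicate 4, 5 without 3aKO replicate 2, and 4 without 3bKI replicate 3 or 3aKO replicate 4 or 5. With sex as a covariate, which leaves out 3bKI replicate 2, it was 0. The beta-actin measure given above did not overlap between these groups, whereas the Gapdh measure did. The part of RNA quality, of dividing cells and of hepatocyte markers in these differences was not tested.

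In the 12 normal livers 28 pairs of iron genes were correlated across samples, and 0 passed after Benjamini-Hochberg adjustment. The pair of lowest Pearson p was Tfrc with Slc40a1, uptake against export, with a Pearson r of -0.68 (permutation p = 0.0130, adjusted p = 0.344) and a Spearman rho of -0.48 (permutation p = 0.116, adjusted p = 0.463). Without the 2 livers farthest from the median of Tfrc r was -0.44, and it was -0.85 in 6 females and -0.75 in 6 males. Hamp and Hamp2 had an r of 0.52 (permutation p = 0.128, adjusted p = 0.4003) and a rho of -0.02 (permutation p = 0.955, adjusted p = 0.991), and r was -0.78 without the 2 livers farthest from the median of Hamp, so that the positive value rested on those livers. Within the sexes it was -0.74 in 6 females and 0.89 in 6 males.

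Across arrays the genes with the most similar pattern were named by Pearson r, as a description. Over the 17 arrays of normalization 1 these were Rgn (0.97), Aldh2 (0.96) and Rspo3 (0.95) for Hamp, Atg3 (0.90), Apol7a (0.90) and Aldh9a1 (0.88) for Hamp2, and Abhd2 (0.86), Zfp579 (0.85) and Spp2 (0.84) for Tfrc. For Tfr2, over the 16 arrays of normalization 2, they were Lrp1 (0.91), Rnf169 (0.90) and Osbpl9 (0.89). For the genes that differed by sex they were, in normalization 1, Hs3st6 (0.91), Mtdh (0.89) and Galns (0.87) for Slc11a2 and Rptor (0.90), Il17rc (0.82) and Gnpat (0.81) for Hmox1. All of these values include the tumours, and those over normalization 1 include 1KI replicates 3 and 4. In normalization 2, without 1KI, the genes most like Hamp were others, Atp5h (0.91), Apoa5 (0.86) and Sec14l4 (0.82).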

How the data were processed

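The authors deposited log2 values for each probe set, in 2 normalizations per the labels; the authors' summarisation and normalization method is not given in the sources used here. Per the labels' protocols, total RNA was extracted with Trizol and biotinylated cRNA was made from 5 ug. The 33 columns are 21 arrays. Of 45101 probe sets, 34945 carried 1 symbol, 932 several and 9160 none, and 64 array controls were left out. Each gene took its brightest single-symbol probe set (18193 genes). Each comparison was fitted on its 2 groups with limma 3.58.1 (lmFit, eBayes) in R 4.3.3, with two-sided p adjusted by Benjamini-Hochberg over all genes. Errors are moderated standard errors (SE) after changes and SD after means. The number of arrays limits precision. Sequences came from RefSeq (GRCm38.p6), where 6 of the 10 genes had an entry, and Hamp and Hamp2 were aligned with Biopython 1.88. The fit was tested on simulated data. Pathway genes were named as the called genes of a list, at most 3 by size, or else the gene of lowest p; Smad5 and Tmprss6 in 3bKI against 3aKO were chosen after their values were seen. Genes of similar pattern were named for Hamp, Hamp2, Tfrc and members called, 3 each, in normalization 1 or, for a member called only in 3bKI, normalization 2; Hamp in normalization 2 was added after the values were seen. Correlations used 100000 permutations. Alternatives were quantile normalization, leaving out the 40% dimmest genes, averaging a gene's probe sets, a fit of all 3 groups, eBayes with trend and robust, the replicate block, sex, each array left out, and, added after seeing the data, the next brightest probe set and counts of pathway genes. The members and lists were chosen with earlier results of these data known.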

Additional observations from a re-analysis of the deposited data

Results flagged for a closer look

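Among 32 sets of values, each an iron gene in a group of 4 to 7 arrays, 3 had a sample far from the others of its group, where chance gives about 1 in 20. Hamp in wt replicate 7 of normalization 1 was 12.68, below 13.84 to 14.19 in the other wt livers. Hamp in 3bKI replicate 3 was 12.28, below 13.81 to 14.08 in the other 3bKI tumours. Slc11a2 in 3bKI replicate 3 was 8.37, above 7.64 to 7.71 in the other 3bKI tumours.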

How the results depend on the processing

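Of 811 values of the iron genes under alternatives, 742 kept their direction and their side of the threshold, 53 changed sign while not called (-0.35 to 0.57), 14 lost a call, 2 gained one and 0 reversed a call. Both gains were Tfr2 in the fit of all 3 groups, in 1KI against wt (adjusted p = 0.0389) and 3bKI against wt (adjusted p = 0.0438). That fit called 1 gene in 3aKO against wt, 313 genes, 1 iron gene and 2 pathway genes in 1KI against wt, 57 genes in 1KI against 3aKO, 996 genes, 1 iron gene and 8 pathway genes in 3bKI against wt, and 0 iron genes in 3bKI against 3aKO. Quantile normalization gave 1 gene in 1KI against 3aKO, and 844 genes, 0 iron genes and 6 pathway genes in 3bKI against 3aKO. In 1KI against 3aKO, 1 gene was called without dim genes and 1 with trend and robust. The mean of the probe sets gave 0 pathway genes in 1KI against wt and 9 in 3bKI against 3aKO. With sex as a covariate 93 genes were called in 1KI against wt and 3 in 1KI against 3aKO. In 3bKI that fit, which leaves out replicate 2, gave 67 genes with 1 pathway gene against wt. Against 3aKO it gave 145 with 0 iron and 0 pathway genes. Without 1KI replicates 3 and 4 there were 0 pathway genes in 1KI against wt and 23 genes in 1KI against 3aKO. Wt livers only gave 0 iron genes between the sexes. With values centred on group means 1 pair passed, Tfrc with Slc40a1 (r -0.79, permutation p = 0.0017, adjusted p = 0.0476). The cause of these changes was not tested.

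Whether the replicate numbers pair the samples cannot be told, since only same-numbered samples were correlated, without differently numbered ones to set beside them. Their correlations were -0.47 to 0.30 in 3aKO against wt, -0.19 to 0.01 in 1KI against wt and -0.08 to 0.44 in 1KI against 3aKO. In 3bKI they were -0.15 to 0.21 against wt and 0.06 to 0.28 against 3aKO. With the replicate block 1 gene was called in 3aKO against wt, 1 gene and 0 pathway genes in 1KI against wt, 694 genes in 3bKI against wt, and 50 genes, 0 iron genes and 0 pathway genes in 3bKI against 3aKO, where Tfr2 had -0.34 (adjusted p = 0.0828).

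Leaving out 1 array at a time gave 0 to 1 genes in 3aKO against wt, 2 to 69 in 1KI against wt, 0 to 6 in 1KI against 3aKO, 49 to 848 in 3bKI against wt and 490 to 1440 in 3bKI against 3aKO, against 0, 44, 0, 377 and 1671 with all arrays. Iron genes called were 0 to 1 in 3bKI against 3aKO, and pathway genes 0 to 1 in 1KI against wt, 1 to 8 in 3bKI against wt and 4 to 14 in 3bKI against 3aKO. Groups of 4 to 7 arrays and the ceiling of the signal limit what can be seen of Hamp.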
